A study of Rattus norvegicus with 60 samples.

Results

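The 10 genes described here carry the signal of a muscle action potential into calcium release and take the calcium back up again: Ryr1, Cacna1s, Atp2a1, Atp2a2, Casq1, Casq2, Pvalb, Sln, Jph1 and Jph2. They were chosen by name, and 9 of them were found among the 20662 genes of the count table. Atp2a1 was not analysed here. All 9 passed the filter on low counts, which left 17155 genes for testing, and the lowest count of a member in any library was 47 reads.

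When a muscle fiber is excited, the voltage sensor of the transverse tubule, whose pore subunit is encoded by Cacna1s, opens the ryanodine receptor Ryr1 in the facing membrane of the sarcoplasmic reticulum, and calcium flows into the cytoplasm. The junctophilins Jph1 and Jph2 hold the facing membranes together, and the calsequestrins Casq1 and Casq2 bind the calcium stored inside the reticulum. Calcium pumps of the SERCA type, encoded by Atp2a1 in fast fibers and Atp2a2 in slow fibers, refill the store, the small membrane protein sarcolipin (Sln) inhibits them, and parvalbumin (Pvalb) buffers cytoplasmic calcium in fast fibers.

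RNA was taken from the hind limb muscle of young male Sprague-Dawley rats, from the wound site in the animals of the experimental groups, in which a weight was dropped on the right hind limb under anesthesia, and from control rats that were killed without a blow. Each library came from a different rat. The groups killed 4 h and 20 h after the blow held 7 libraries each, those killed after 8, 12, 16, 24 and 48 h held 8 each, and the control group held 6. The sampled piece was whole muscle tissue and held every cell type of the wound. The libraries were sequenced after poly-A selection, and the values used are read counts per gene.

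The headings of the 60 count columns disagree with a named copy of the counts, so groups were taken from the position of a column in the table. The paper describes that copy as holding 20662 genes, but the part of it read here covered 49 libraries and 1288 genes. Each of the 49 matched exactly 1 column, with 99.7% to 100% of the genes within 0.5 read. In all 49 the time point of the matched name was that of the column's position, and in 0 of 49 did the heading carry the matched name. The other 11 columns rest on position alone, namely 1 of the 4 h group, 1 of the 8 h group, 2 of the 12 h group, 1 of the 20 h group and 6 of the 8 in the 48 h group, and this limit bears on every value at 48 h below. The study removed samples it judged abnormal before its own analysis, whereas all 60 columns were kept here unless stated. At 4, 8, 12 and 20 h as many columns were matched as the study kept samples. Whether the unmatched columns of these groups are the removed samples was not tested.

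Between 16372673 and 34931323 reads were assigned to genes in a library, and 3 libraries of every group were among the 24 with the lower totals. Levels are given as normalized CPM, read counts scaled to a common library total (CPM) and adjusted by trimmed means of M values (TMM), a method that holds the bulk of the genes level between libraries. Although an extraction label speaks of retina, 6 photoreceptor and retinal markers summed to at most 6.11 CPM in any library, whereas 14 fiber reference genes, which encode abundant proteins of muscle fibers and include Acta1 and Ckm, summed to between 44926 and 258658 CPM. The summed level of these 14 genes was 44926 to 135458 CPM at 48 h and 193453 to 245594 CPM in controls, with no overlap. Markers of neutrophils summed to 689 to 2568 CPM at 8 h, against 6.30 to 15.1 CPM in controls, and markers of macrophages to 914 to 2719.9 CPM at 48 h, against 169 to 291 CPM in controls. All 8 markers of each of these leukocyte lists were read in the table. In such tissue, fewer fibers and less RNA of a gene per fiber cannot be told apart, and what part the changing cell composition had in the results below was not tested.

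**Figure D1:**
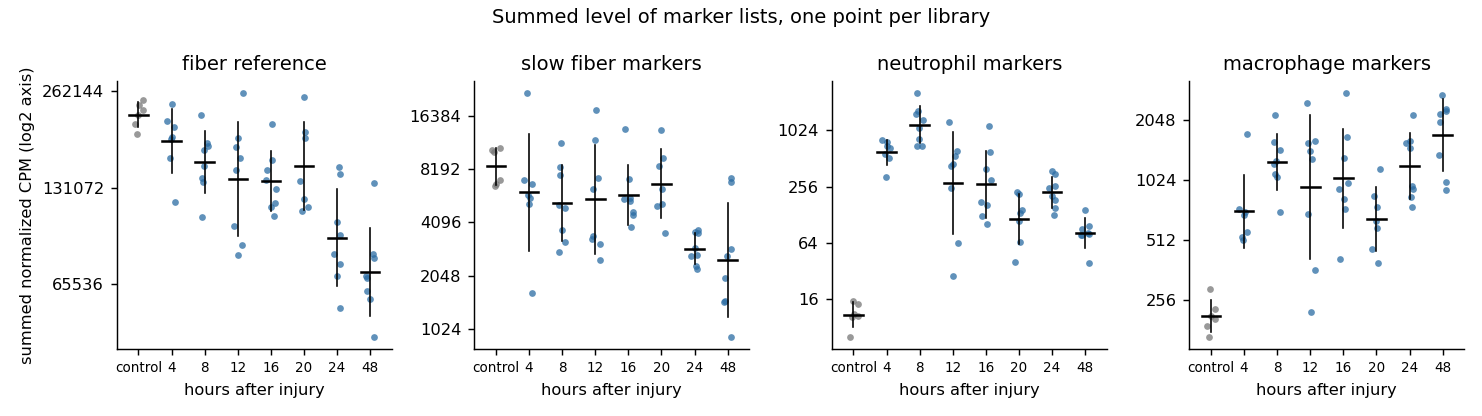
Summed normalized CPM (log2 axis) of 14 fiber reference genes, 7 slow fiber markers, 8 neutrophil markers and 8 macrophage markers, by group (control, then hours after injury). Each point is a library, the horizontal line is the mean of the log2 values and the vertical line its SD. The fiber reference sum at 48 h, 44926 to 135458 CPM, lies below every control, and the slow fiber markers spread from 1633 to 21942 CPM at 4 h.

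The question asked of the time course was which of these genes changed after injury, and when. By edgeR's quasi-likelihood test with Benjamini-Hochberg adjustment, all 9 members differed among the 8 groups at adjusted p under 0.05, as did 75.7% of all genes tested. At 4 h, 2 of the 9 members were lower and 1 was higher than in controls, beside 22.2% of all genes that were lower and 22.8% that were higher. At 8 h, 3 members were lower and 0 higher (25.9% and 24.6% of all genes), and at 12 h 2 were lower and 0 higher (13.1% and 19.1%). At 16 h, 5 were lower and 0 higher (16.9% and 20% of all genes), and at 20 h 2 were lower and 0 higher (6.62% and 12.9%). The lower calls were most frequent at 24 h, with 7 lower and 0 higher (20.1% and 21.9% of all genes), followed by 48 h with 6 lower and 1 higher (18.2% and 23%). The median log2 fold change of the 9 members was -1.48 at 24 h and -0.95 at 48 h, where the median over all genes tested was 0 and 0.04.

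These counts depend on what the libraries are scaled to. With size factors from the 14 fiber reference genes alone, so that a change is read relative to fiber RNA, the median of all genes moved by 1.32 on the log2 scale at 24 h and by 1.69 at 48 h. Under that scaling, 2 members were lower and 1 higher at 4 h, beside 7.05% and 17.7% of all genes. At 24 h, 2 were lower and 3 higher (1.64% and 67.4% of all genes), and at 48 h 2 were lower and 4 higher (0.577% and 78.2%). The members below are therefore given under both scalings. Casq1 and Pvalb at 4, 8, 16, 24 and 48 h were lower, and Sln at 48 h and Ryr1 at 4 h higher, under both, whereas Cacna1s, Jph2 and Atp2a2 were lower at 24 and 48 h with TMM and did not pass the test relative to fiber RNA.

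**Figure D2:**
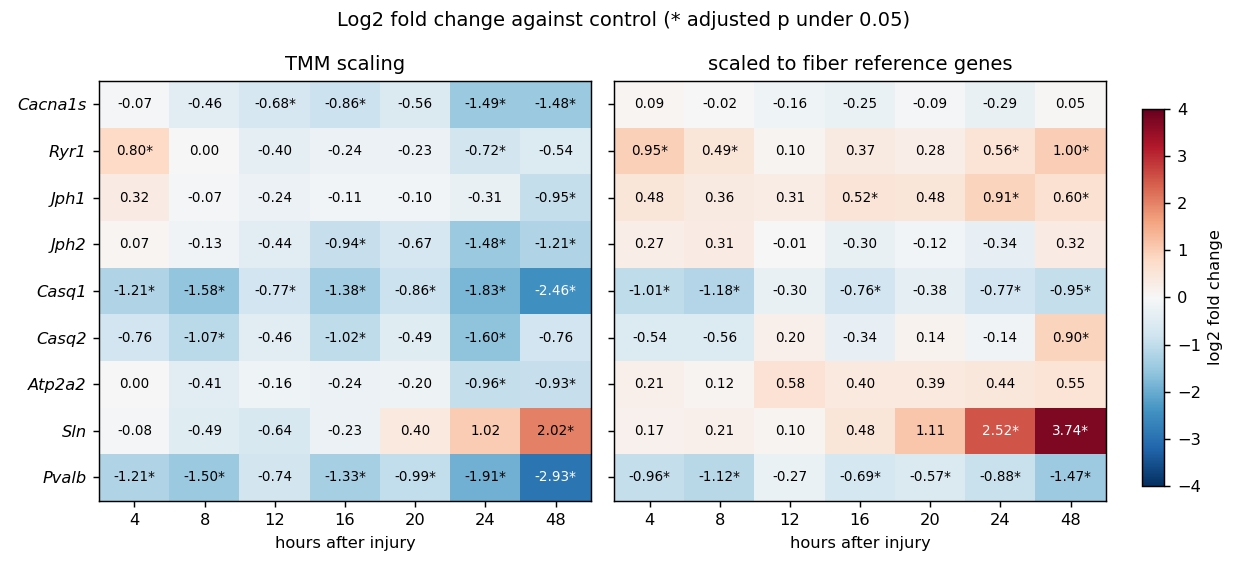
Log2 fold change of the 9 members against control (rows) at each time after injury (columns), from edgeR with TMM scaling on the left and with scaling to the 14 fiber reference genes on the right. An asterisk marks adjusted p under 0.05. Pvalb and Casq1 are negative in both panels at every time, Sln at 48 h is positive in both (2.02 and 3.74), and Ryr1 turns from -0.72 to 0.56 at 24 h between the panels.

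Casq1, the calsequestrin of fast fibers and the main calcium buffer of their store, was lower than in controls at every time point with TMM, the calls at 12 and 20 h lying near the threshold. It had 1493 to 2112 CPM at 4 h (median 2025), 465.7 to 1934 at 8 h (median 1535) and 354 to 1855 at 48 h (median 697), against 3738 to 4878 CPM in controls (median 4248). No library of these 3 times reached the lowest control. The log2 fold change was -1.21 ± 0.32 (SE) at 4 h (edgeR adjusted p = 0.00151), -1.58 ± 0.31 at 8 h (adjusted p = 2.21e-05), -1.38 ± 0.31 at 16 h (adjusted p = 0.000345), -1.83 ± 0.31 at 24 h (adjusted p = 3.96e-06) and -2.46 ± 0.31 at 48 h (adjusted p = 9.96e-09). The mean at 48 h was 0.182 of the control mean. Medians were 2462, 1480.3, 2109 and 833 CPM at 12, 16, 20 and 24 h. At 12 h 7 of 8 libraries and at 20 h 7 of 7 libraries lay below all controls, with log2 fold changes of -0.77 ± 0.31 (edgeR adjusted p = 0.0472) and -0.86 ± 0.32 (adjusted p = 0.0478). The call at 12 h was lost without any control but control 3, numbered in column order (-0.79 to -0.74, adjusted p = 0.0567 to 0.0761), and that at 20 h without any of the 6 (-0.91 to -0.83, adjusted p = 0.0512 to 0.0745). Without the 7 libraries in which 7 T and B cell markers summed to over 40 CPM, 3 of them at 12 h, the value at 12 h was -0.46 and did not pass.

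Pvalb, the parvalbumin that speeds relaxation of fast fibers, took much the same course. It had 2084 to 3651 CPM at 4 h (median 2862), 575.7 to 3548 at 24 h (median 1299) and 479 to 2484 at 48 h (median 695), against 5912 to 8598 CPM in controls (median 6647). All libraries at 4, 8, 16, 24 and 48 h were below all controls, and 1 library at 12 h, with 8933 CPM, was above them. Against controls the log2 fold change was -1.21 ± 0.36 at 4 h (edgeR adjusted p = 0.0043), -1.50 ± 0.34 at 8 h (adjusted p = 0.000239), -1.33 ± 0.34 at 16 h (adjusted p = 0.00175), -1.91 ± 0.35 at 24 h (adjusted p = 1.1e-05) and -2.93 ± 0.36 at 48 h (adjusted p = 2.86e-09). At 20 h it was -0.99 ± 0.35 (edgeR adjusted p = 0.0416), a call lost without control 2, 4, 5 or 6 (-1.02 to -0.92, adjusted p = 0.0524 to 0.0757), and at 12 h it did not pass (adjusted p = 0.0891). Pvalb was the member with the largest fall in this fit, its mean at 48 h being 0.131 of the control mean.

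Relative to fiber RNA the fall of both genes was smaller but kept its direction. With scaling to the fiber reference genes, Casq1 changed by -1.01 at 4 h, -0.77 at 24 h and -0.95 at 48 h (edgeR adjusted p = 6.08e-06, 4.11e-05 and 7.08e-07), and Pvalb by -0.96, -0.88 and -1.47 (adjusted p = 0.00023, 7.78e-05 and 6.38e-09). The 48 h library highest in fiber reference genes, whose group rests on position alone, was also the highest at 48 h for both genes, and without it the values were -2.77 for Casq1 and -3.34 for Pvalb with TMM. Over the 60 libraries the Spearman correlation of Casq1 with Pvalb was 0.93, and the gene ranked most like either was Mylpf, a fast myosin light chain (0.95 with each). These points share libraries, time and fiber content, and the correlation is a description.

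Since Casq1 and Pvalb fell together and Ryr1 rose at 4 h, the 250 bases before their annotated starts are shown, from RefSeq on the GRCr8 build, a later build than the rn6 genome of the counts. Capitals mark each E-box, CANNTG, the motif bound by myogenic factors such as MyoD, which was searched on both strands and reads the same on either.
Casq1, chr13:87212711-87212960, minus strand: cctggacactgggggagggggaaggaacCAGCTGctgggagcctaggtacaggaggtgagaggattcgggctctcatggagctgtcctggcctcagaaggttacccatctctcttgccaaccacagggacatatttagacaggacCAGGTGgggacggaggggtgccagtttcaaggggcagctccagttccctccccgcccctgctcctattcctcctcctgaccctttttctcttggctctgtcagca
Pvalb, chr7:111666290-111666539, minus strand: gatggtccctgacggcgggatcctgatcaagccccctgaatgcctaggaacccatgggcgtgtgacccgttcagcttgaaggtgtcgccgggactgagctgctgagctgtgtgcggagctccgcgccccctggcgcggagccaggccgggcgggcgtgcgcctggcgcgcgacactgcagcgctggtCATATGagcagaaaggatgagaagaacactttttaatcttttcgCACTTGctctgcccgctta
Ryr1, chr1:93551306-93551555, minus strand: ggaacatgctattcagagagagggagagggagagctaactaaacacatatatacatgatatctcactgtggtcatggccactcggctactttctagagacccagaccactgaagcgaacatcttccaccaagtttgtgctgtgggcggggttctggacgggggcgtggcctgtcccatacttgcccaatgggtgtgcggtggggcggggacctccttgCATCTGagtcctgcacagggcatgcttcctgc
Casq1 and Pvalb held 2 E-boxes each and Ryr1 held 1, and 65.5% of the 33469 promoters in the reference held at least 1. Of the 10 members, 8 had a promoter in this table. Casq2 and Cacna1s held 2 E-boxes each, Atp2a1 and Atp2a2 held 1 each and Jph2 held 0. A MEF2 motif was found in Casq2 alone among these (2.96% of all promoters), and TATAAA in Cacna1s alone (12.9% of all promoters). The MEF3 motif TCAGGTT (3.30% of all promoters) and the CArG box (1.497% of all promoters) matched in none of them. Such matches are letters in a window and not evidence of binding.

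**Figure D3:**
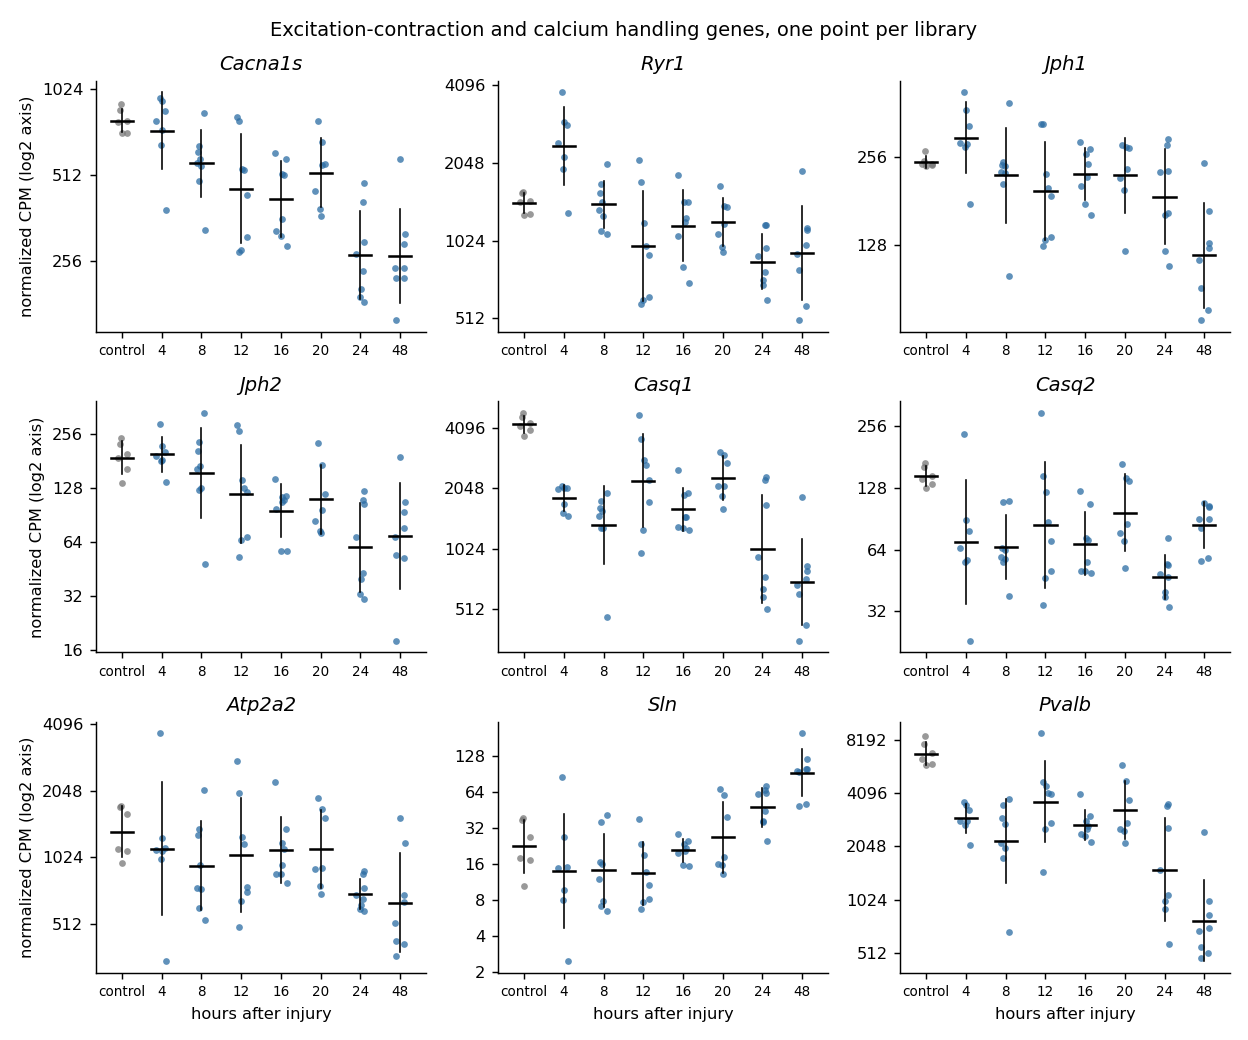
Normalized CPM (log2 axis) of the 9 members by group (control, then hours after injury), with 1 point per library, the mean of the log2 values as a horizontal line and its SD as a vertical line. Casq1 and Pvalb lie below the controls at most times, Ryr1 stands above them at 4 h in 6 of 7 libraries, and Sln in all 8 libraries at 48 h.

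Ryr1, the calcium release channel, was the member that rose early. It had 1309.8 to 3827 CPM at 4 h (median 2440.0), against 1289 to 1583 CPM in controls (median 1448), and 6 of the 7 libraries at 4 h were above all controls. At 4 h the log2 fold change was 0.80 ± 0.26 (edgeR adjusted p = 0.00931), and 0.95 relative to fiber RNA (adjusted p = 7.98e-05). By 8 h the level was 0.79 lower on the log2 scale than at 4 h (edgeR log2 difference -0.79 ± 0.24, adjusted p = 0.0142), with a median of 1390.4 CPM. At 24 h Ryr1 had 603 to 1174 CPM (median 831), and all 8 libraries were below all controls. With TMM the log2 fold change at 24 h was -0.72 ± 0.24 (edgeR adjusted p = 0.0141), but relative to fiber RNA it was 0.56 (adjusted p = 0.00474), so that Ryr1 fell less than the fiber reference genes did. At 48 h the level was 503 to 1904 CPM (median 948), with a log2 fold change that did not pass with TMM (-0.54, edgeR adjusted p = 0.0733) and of 0.996 relative to fiber RNA (adjusted p = 1.98e-06). Without the 48 h library highest in fiber reference genes, the TMM value was -0.74 and passed the test. The Ryr1 values relative to fiber RNA at 24 and 48 h lay below the median of all genes under that scaling, 1.32 and 1.69.

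Cacna1s, the voltage sensor that faces Ryr1, did not share the rise at 4 h. It had 388 to 952 CPM at 4 h (median 791), against 717 to 907 CPM in controls (median 791), and the groups overlapped. The level was lower at 16 h (289.6 to 613 CPM, median 438), at 24 h (184 to 481 CPM, median 253) and at 48 h (158 to 585 CPM, median 242), and every one of these libraries was below all controls. Relative to controls the log2 fold change was -0.68 ± 0.25 at 12 h (edgeR adjusted p = 0.0296), -0.86 ± 0.25 at 16 h (adjusted p = 0.00462), -1.49 ± 0.25 at 24 h (adjusted p = 2.9e-06) and -1.48 ± 0.25 at 48 h (adjusted p = 2.6e-06). The call at 12 h was lost without control 6 (-0.64, edgeR adjusted p = 0.0527) and without the libraries high in T and B cell markers (-0.47). Medians at the remaining times were 576 CPM at 8 h, 486 at 12 h and 555 at 20 h. Relative to fiber RNA the values were -0.29 at 24 h and 0.05 at 48 h and did not pass.

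The ratio of the release channel to its voltage sensor inside each library does not depend on the scaling. On the log2 scale, Ryr1 over Cacna1s was 1.70 ± 0.22 (SD, n = 7) at 4 h, 1.33 ± 0.30 (n = 8) at 8 h, 1.09 ± 0.19 (n = 8) at 12 h, 1.47 ± 0.21 (n = 8) at 16 h, 1.21 ± 0.20 (n = 7) at 20 h, 1.66 ± 0.22 (n = 8) at 24 h and 1.78 ± 0.29 (n = 8) at 48 h, against 0.85 ± 0.08 (n = 6) in controls. All 7 libraries at 4 h and at 20 h, and all 8 at 16, 24 and 48 h, were above every control. In exact two-sided permutation tests over libraries, adjusted over the 21 ratio differences tested, the difference from controls was 0.85, 0.62, 0.81 and 0.93 at 4, 16, 24 and 48 h, each with an adjusted p of 0.0035. It was 0.48 at 8 h and 0.36 at 20 h with the same adjusted p, and 0.24 at 12 h (exact permutation test, adjusted p = 0.028). In the columns matched to a named library alone the difference was 0.21 at 12 h and no longer passed. At 48 h it was 0.96 there, with only 2 libraries left, both above every control. With 2 libraries against 6 controls the exact test cannot reach the threshold, so it decides nothing at 48 h.

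**Figure D4:**
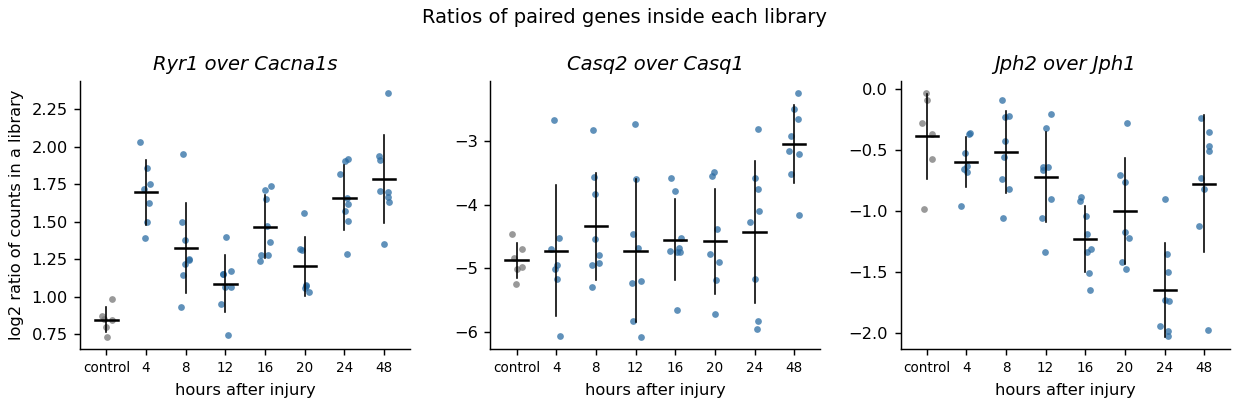
Log2 ratio of the counts of paired members inside each library, by group (control, then hours after injury), with the mean as a horizontal line and the SD as a vertical line. Ryr1 over Cacna1s is above the controls at every time on average (1.09 to 1.78 after injury, 0.85 in controls), Casq2 over Casq1 at 48 h, and Jph2 over Jph1 is lowest at 24 h (-1.65, against -0.39 in controls).

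The junctophilins, which tie the transverse tubule to the reticulum, moved unequally. Jph1 had 109 to 296 CPM at 24 h (median 196) and 71.0 to 245 CPM at 48 h (median 120), against 238 to 268 CPM in controls (median 242). With TMM it passed the test at 48 h alone, with a log2 fold change of -0.95 ± 0.24 (edgeR adjusted p = 0.00115). Relative to fiber RNA the sign turned, and Jph1 was higher by 0.91 at 24 h (edgeR adjusted p = 0.000188) and by 0.60 at 48 h (adjusted p = 0.00867), both below the median of all genes under that scaling, 1.32 at 24 h and 1.69 at 48 h. At 16 h it was 0.52 on that scale (edgeR adjusted p = 0.041), beside a median of 0.63. At 4 h, 6 of 7 libraries were above all controls (177 to 425 CPM), but the log2 fold change of 0.32 did not pass (edgeR adjusted p = 0.308). The library with 177 CPM rests on position alone. It was also the lowest at 4 h for Ryr1, Cacna1s, Atp2a2, Casq2, Sln, Jph2 and the fiber reference sum. In it the T and B cell markers summed to 417 CPM, against 1.63 to 13.6 CPM in the other 4 h libraries. Medians of Jph1 at 8, 12, 16 and 20 h were 233, 194, 230.5 and 232 CPM.

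Jph2, the form that is also found in the heart, had 56.6 to 144 CPM at 16 h (median 108), 30.7 to 122 CPM at 24 h (median 55.6) and 17.98 to 191 CPM at 48 h (median 72.6), against 135 to 242 CPM in controls (median 193). All 8 libraries at 24 h, 7 of 8 at 16 h and 7 of 8 at 48 h were below all controls. The log2 fold change was -0.94 ± 0.36 at 16 h (edgeR adjusted p = 0.0374, lost without control 1, 3 or 6, where it was -0.94 to -0.87), -1.48 ± 0.37 at 24 h (adjusted p = 0.000857) and -1.21 ± 0.37 at 48 h (adjusted p = 0.00595). Medians at 4, 8, 12 and 20 h were 193, 165, 124 and 96.6 CPM. Inside a library the log2 ratio of Jph2 to Jph1 was -1.23 ± 0.27 (SD, n = 8) at 16 h and -1.65 ± 0.38 (n = 8) at 24 h, against -0.39 ± 0.35 (n = 6) in controls. The differences were -0.84 at 16 h, -0.62 at 20 h and -1.26 at 24 h (exact permutation tests, adjusted p = 0.00466, 0.0467 and 0.0035), and at 48 h the difference was -0.39 and did not pass (adjusted p = 0.236).

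Casq2, the calsequestrin of slow fibers and heart, was lower at 8 h (37.9 to 111 CPM, median 61.6), 16 h (49.5 to 123 CPM, median 63.6) and 24 h (33.5 to 73.0 CPM, median 47.9) than in controls (129 to 170.2 CPM, median 144). No library at these 3 times reached the lowest control. With TMM the log2 fold change was -1.07 ± 0.34 at 8 h (edgeR adjusted p = 0.0068), -1.02 ± 0.34 at 16 h (adjusted p = 0.0143) and -1.60 ± 0.34 at 24 h (adjusted p = 0.000127), and none of the 3 passed relative to fiber RNA. At 48 h the level was 56.3 to 108 CPM (median 90.2), below all controls in 8 of 8 libraries, but the log2 fold change of -0.76 did not pass (edgeR adjusted p = 0.0641). It passed without the 4 h library highest in slow fiber markers (-0.77, adjusted p = 0.036) and without the libraries high in T and B cell markers (-0.75, adjusted p = 0.0439). Relative to fiber RNA the value at 48 h was 0.90 (edgeR adjusted p = 0.0493), below the median of all genes under that scaling, 1.69. At 4 h 1 library had 236 CPM, above all controls, where the other 6 had 22.98 to 89.4 CPM. That library also had the highest level of Atp2a2, Sln and the 7 slow fiber markers at 4 h, and without it the log2 fold change of Casq2 at 4 h was -1.25 and passed the test, against -0.76 with it. Medians at 4, 12 and 20 h were 65.6, 79.4 and 85.1 CPM.

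Set against each other inside a library, the calsequestrins differed at 48 h. The log2 ratio of Casq2 to Casq1 was -3.04 ± 0.61 (SD, n = 8) at 48 h and -4.87 ± 0.28 (n = 6) in controls, higher in 8 of 8 libraries than in every control. The difference was 1.83 (exact permutation test, adjusted p = 0.0035). It did not pass at any other time. In the 2 libraries at 48 h matched to a name the difference was 1.65 (same exact test, adjusted p = 0.136), and both lay above every control. With 2 libraries against 6 controls the lowest unadjusted p of this exact test is 0.0714, so it could not pass there.

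Atp2a2, the slow fiber pump, had 581 to 890 CPM at 24 h (median 678) and 366 to 1537 CPM at 48 h (median 579), against 966 to 1750.3 CPM in controls (median 1354). All 8 libraries at 24 h and 6 of 8 at 48 h were below all controls. With TMM the log2 fold change was -0.96 ± 0.35 at 24 h (edgeR adjusted p = 0.0241) and -0.93 ± 0.35 at 48 h (adjusted p = 0.0309, lost without control 3, 4 or 5, where it was -0.89 to -0.86). Relative to the 14 fiber reference genes the values were 0.44 and 0.55 and did not pass, and relative to the 7 slow fiber markers they were 0.64 and 0.88. The median of all genes under this last scaling was 1.53 at 24 h and 2.17 at 48 h, with 64.3% and 80.6% of all genes called higher, so Atp2a2 lay below the median at both times. At 4 h the libraries spread from 346 to 3723 CPM (median 1097), the widest spread of this gene, and the slow fiber markers spread from 1633 to 21942 CPM in the same group. Medians at 8, 12, 16 and 20 h were 842, 959.5, 1028 and 909.9 CPM. The genes most like Atp2a2 over the 60 libraries were Tnnc1, Tpm3 and Tnnt1, all of the slow contractile apparatus (Spearman 0.96, 0.95 and 0.95).

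Sln, which encodes sarcolipin, was the one member called higher late after injury with TMM. It had 24.8 to 71.7 CPM at 24 h (median 52.6) and 48.6 to 197 CPM at 48 h (median 97.3), against 10.5 to 38.9 CPM in controls (median 22.3). All 8 libraries at 48 h and 5 of 8 at 24 h were above all controls. The log2 fold change at 48 h was 2.02 ± 0.50 (edgeR adjusted p = 0.000778), and the mean was 4.06 times the control mean. At 24 h it was 1.02 ± 0.48 and did not pass with TMM (edgeR adjusted p = 0.0804). Relative to fiber RNA the log2 fold change was 2.52 at 24 h and 3.74 at 48 h (edgeR adjusted p = 0.000332 and 1.31e-06). Medians at 4, 8, 12, 16 and 20 h were 14.8, 13.96, 12.1, 21.2 and 18.1 CPM, all below the control median. The mean at 20 h, 32.7 CPM, was nevertheless above the control mean of 24.8 CPM, with 3 of 7 libraries above all controls and 0 below them. The library at 48 h that was lowest in Sln was the same library that was highest in the fiber reference genes.

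Between neighbouring times few members passed the test. At 8 h against 4 h, 1 of 9 was lower, Ryr1, beside 17.4% of all genes called in either direction. At 12 h against 8 h, 1 was higher, Casq1 (log2 difference 0.81 ± 0.29, edgeR adjusted p = 0.0343), beside 22.3%. At 16 h against 12 h and at 20 h against 16 h, 0 members passed, beside 0.63% and 1.91% of all genes, and 0 passed with DESeq2. At an unadjusted p under 0.05 edgeR gave 1 member, Casq1, at 16 h against 12 h and 0 at 20 h against 16 h. At 24 h against 20 h, 3 were lower, beside 5.94%: Cacna1s by -0.93 ± 0.24 (edgeR adjusted p = 0.0143), Casq1 by -0.97 ± 0.30 (adjusted p = 0.0403) and Casq2 by -1.11 ± 0.33 (adjusted p = 0.0333). At 48 h against 24 h, 1 was lower, Pvalb (-1.01 ± 0.32, edgeR adjusted p = 0.0458), beside 6.1%. The last step rests on the choice of libraries, since 3 members passed, all lower, without the 48 h library highest in fiber reference genes, and 0 passed in the columns matched to a name or with any 1 of the 6 controls left out. All genes called in these 3 settings were 1020 of 17136, 610 of 16991, and 963 to 997 of 17142 to 17148. When the groups were put in order of their mean level, 6 of the 7 neighbouring pairs of groups lay within the larger of their SDs for Ryr1, Cacna1s, Casq1, Pvalb, Sln and Jph1, and 7 of 7 for Atp2a2, Casq2 and Jph2. For Ryr1 the gap beyond the SD was that between 4 h and control.

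Across the 60 libraries Cacna1s went most closely with Jph2 and Ryr1. The Spearman correlation of Cacna1s was 0.89 with Jph2, 0.89 with Ryr1, 0.79 with Casq1, 0.78 with Jph1 and 0.73 with Pvalb. Atp2a2 went with Casq2 (0.67) and little with Casq1 (0.29) or Pvalb (0.17), and Sln was negative with Pvalb (-0.61), Cacna1s (-0.50) and Casq1 (-0.47). Among 13466 genes that averaged 10 reads or more, the gene most like Ryr1 was Cmya5 (0.94), that most like Cacna1s was Atp2b3, a calcium pump of the plasma membrane (0.97), followed by the cation channel of the reticulum Tmem38a (0.96). Scn4a, the sodium channel of skeletal muscle, ranked highest for Jph1 (0.88), Myoz3, a protein of the Z-disc, for Jph2 (0.96), and Myh7b for Casq2 (0.77). The points share group, fiber content and depth class, so these values describe the libraries and carry no test.

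Of 79 other genes of the pathway, in 6 lists, 76 were tested. The number lower and higher than in controls was 11 and 9 at 4 h, then 30 and 16 by 8 h, 23 and 14 by 12 h, 32 and 14 by 16 h, 9 and 12 by 20 h, 42 and 17 by 24 h, and 38 and 15 by 48 h. The median log2 fold change of the 76 was -0.63 at 24 h and -0.58 at 48 h. The percentages of all genes given above stand as the background for these counts too. The genes named below are among the 2 largest rises and falls of each list with TMM. Relative to fiber RNA, a scaling that raised the median of all genes at every time, the sign turned for Trdn (0.21), Hrc (0.12) and Cav3 (0.05). Clcn1 (-0.61), Atp1b2 (-0.0095), Slc8a3 (-0.38) and Tnnc2 (-0.12) kept their sign but did not pass the test at the times given below. Of the 12 largest falls 5 were still called lower under that scaling, and of the 12 largest rises 11 were still called higher, all but Ryr2 (1.71). These genes were picked by their size in the same data. The scaling itself called 5203 of 17155 genes higher and 1342 lower at 8 h. At 24 h it called 67.4% higher and 1.64% lower, and at 48 h 78.2% and 0.577%. The 2 counts are therefore no test of the rises against the falls.

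Among 14 partners of the voltage sensor and release channel, 7 were lower and 1 higher at 48 h. Trdn, triadin, which anchors calsequestrin to the release channel, had 595 ± 237 CPM (SD, n = 8) at 48 h and 1500 ± 117 CPM (n = 6) in controls (log2 fold change -1.33, edgeR adjusted p = 1.16e-05). Ryr3, a minor release channel, had 3.47 ± 1.13 CPM at 8 h and 11.5 ± 3.60 CPM in controls (-1.73, edgeR adjusted p = 0.000128). The rises with the largest size were at levels near 1 CPM, namely Jph3 at 8 h (1.86, edgeR adjusted p = 0.00341) and Ryr2 at 4 h (1.55, adjusted p = 0.0397).

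In the list of 10 genes of uptake and store, 6 were lower and 4 higher at 24 h. Srl, sarcalumenin, a calcium-binding protein of the reticulum, had 323 ± 124 CPM at 24 h and 1011 ± 120.0 CPM in controls (log2 fold change -1.65, edgeR adjusted p = 2.99e-06), and Hrc, the histidine-rich calcium-binding protein, had 391 ± 132 CPM at 48 h and 1073 ± 56.3 CPM in controls (-1.45, adjusted p = 2.87e-06). In the other direction, Tmem38b, a cation channel of the endoplasmic reticulum found in many cell types, had 254 ± 33.7 CPM at 24 h and 83.3 ± 5.56 CPM in controls (1.61, adjusted p = 4.5e-12). Calr, calreticulin, the calcium buffer of the endoplasmic reticulum of most cells, had 824 ± 83.2 CPM at 24 h and 311 ± 10.6 CPM in controls (1.404, adjusted p = 3.43e-10). Tmem38b and Calr are expressed outside muscle fibers as well, and their source was not tested.

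Of 11 genes of sarcolemma excitation, 9 were lower and 2 higher at 24 h. Clcn1, the chloride channel that stabilizes the resting membrane, had 41.001 ± 25.7 CPM at 24 h and 131 ± 8.77 CPM in controls (log2 fold change -1.68, edgeR adjusted p = 0.000847), and Atp1b2 was lower at 48 h (-1.59, adjusted p = 6.29e-05).

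Of 6 genes of the triad membrane, Sypl2, mitsugumin 29, was lower at 24 h (log2 fold change -1.86, edgeR adjusted p = 4.57e-05), as was the caveolin of muscle, Cav3 (-1.16, adjusted p = 3.91e-06). Dysf, dysferlin, which repairs the sarcolemma, was higher at 24 h, with 364 ± 64.6 CPM against 163 ± 9.44 CPM in controls (1.15, adjusted p = 5.77e-08), and Dnm2 was higher at 48 h (0.61, adjusted p = 6.07e-08). Of 14 genes of store-operated entry and exchange, 8 were lower and 4 higher at 8 h. Orai2, a store-operated channel, rose at 12 h (2.05, edgeR adjusted p = 4.3e-06) and Atp2b1 at 8 h (0.99, adjusted p = 8.51e-07), whereas Slc8a3, a sodium-calcium exchanger, was lower at 24 h (-1.52, adjusted p = 8.61e-06).

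Of 21 calcium sensors and effectors, 12 were lower and 5 higher at 24 h. Rcan1, an inhibitor of calcineurin that calcineurin itself induces, had 366 ± 222 CPM at 8 h and 43.3 ± 5.71 CPM in controls (log2 fold change 3.08, edgeR adjusted p = 8.29e-07), while its relative Rcan2 was lower at 24 h (-1.78, adjusted p = 4.44e-07). Tnnc2, the troponin C of fast fibers, had 3519 ± 1063 CPM at 48 h and 11469.5 ± 1417 CPM in controls (-1.70, adjusted p = 3.69e-08).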

How the data were processed

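RNA of injured and control rat muscle was sequenced in 60 libraries. By the submitters' processing notes and the study's methods section, the authors used Trimmomatic to trim the reads, HISAT2 2.1.0 to place them on rn6 and HTSeq 0.6.1, set to reverse strand, to count for each gene the reads with 1 place and 1 gene. The deposited values are these counts, with no normalization. Poly-A selection and unique alignment favour long, unique transcripts, so levels are compared between libraries and not between genes.

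Groups follow column position, checked against a named copy of the counts. No 2 columns of a group were identical (197 pairs). Genes with a total of at least 5 reads were kept, scaled by TMM and fitted over all groups with edgeR 4.0.16 (R 4.3.3, quasi-likelihood test, Benjamini-Hochberg adjustment over all genes tested, threshold 0.05). Ratios inside a library used exact permutation tests (scipy 1.17.1), and 2 of the 5 planned ratios, those with Atp2a1, were not computed. Alternatives were scaling by column totals, median-of-ratios factors or fiber reference genes, DESeq2 1.42.0, other filters, covariates and column sets, and 5 chosen after seeing the data. The test was tested on simulated data. Named genes are all members, the 2 largest rises and falls of each wider list, and the genes most like each member, some of which are not reported here. The members and lists were chosen with earlier results of these data known. Totals of 16372673 to 34931323 reads make the counting error of the members small beside the spread between rats. This does not extend to named genes at levels near 1 CPM or lower, such as Jph3 and Ryr2.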

Additional observations from a re-analysis of the deposited data

Results flagged for a closer look

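In 12 of 72 combinations of member and group, the highest or lowest library lay apart from the others of its group. Chance alone flags about 1 in 20 where values are normally distributed and the combinations independent. The rule was applied to CPM without taking logs, and the combinations share libraries, so this rate is only a rough guide. At 48 h the highest library stood apart for Ryr1 (1904 normalized CPM), Cacna1s (585), Casq1 (1855) and Pvalb (2484), and in each of these 4 genes it was the same library, the one highest in the fiber reference genes at 48 h. Its time point rests on column position alone. At 4 h the highest library stood apart for Atp2a2 (3723), Casq2 (236) and Sln (85.7), again 1 library, the highest of its group in slow fiber markers. The highest library at 12 h was apart for Casq2 (298) and for Pvalb (8933), and these were different libraries. The rest were the highest library at 16 h for Atp2a2 (2239.5), the lowest library at 8 h for Casq1 (465.7) and the highest control for Jph1 (268, where the next was 248).

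For 6 combinations of member and neighbouring times, the effect of injury differed between the times in the edgeR contrast of the later over the earlier. Ryr1 differed by -0.79 on the log2 scale at 8 h against 4 h, and Casq1 by 0.81 at 12 h against 8 h. At 24 h against 20 h, the differences were -0.93 for Cacna1s, -0.97 for Casq1 and -1.11 for Casq2. At 48 h against 24 h, Pvalb differed by -1.01, a call that was lost when any 1 of the 6 controls was left out of the fit.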

How the results depend on the processing

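Each library came from a different rat, and the number in a library's name is known for the 49 matched columns alone. There, 36 of 124 pairs with the same number in different groups correlated above 0.1 in their deviations from the group means (median 0.03). Of the pairs with different numbers in different groups, 195 of 914 did (median -0.01). In every group the matched libraries with the lower totals bore the lowest numbers, so number and library total are linked. The numbers were not taken as pairs in the TMM fit, and what else they stand for was not tested. The number as a replicate block was an alternative chosen after seeing the data. With it, 4 members passed at 48 h, 0 for 12 h against 8 h and 0 for 48 h against 24 h. All genes called there were 4205, 4688 and 440 of 16991. In the same columns without the block 6, 2 and 0 members passed, beside 4888, 4856 and 610 genes. The other counts with the block stayed within 1.5 times those of the TMM fit. Counts of members called are of 9. The genes called among all genes tested follow in parentheses, of 17155 unless another total is given. With median-of-ratios factors, DESeq2, filterByExpr and the library total as a covariate, every count stayed within 1.5 times that of the TMM fit. Scaling by column totals moved the median of all genes by 0.52 at 24 h and 0.65 at 48 h. It gave 3 at 16 h (6915 genes), 4 at 48 h (9820) and 1 each at 12 h (6294) and 20 h (4261). For 12 h against 8 h it gave 2 (3600). Scaling to fiber reference genes gave 0 at 12 h (8006 genes) and 1 at 20 h (3945). Between times it gave 0 for 8 h against 4 h (365) and 2 for 12 h against 8 h (1440). At 16 h it gave 3, of which 2 were lower and 1 higher (TMM 5 lower and 0 higher), and at 8 h 2 lower and 1 higher (TMM 3 lower and 0 higher). All genes called under this scaling were 473 lower and 6541 higher at 16 h, and 1342 lower and 5203 higher at 8 h. Requiring a log2 fold change beyond 1 as well gave 0 each at 12 and 20 h and 3 at 16 h, where the share of all genes was not computed. No filter gave 1 at 20 h (3270 of 18024 genes). The groups of the headings gave 0 at 4 h (808 genes), 1 each at 8 h (2263) and 16 h (5264), 7 at 20 h (7075) and 3 at 48 h (7103). Columns matched to a name gave 4 at 20 h (4845 of 16991 genes). They gave 2 for 12 h against 8 h (4856) and 0 for 48 h against 24 h (610). The 2 groups alone gave 0 at 12 h against 8 h (2298 of 16295 genes) and 2 at 48 h against 24 h (1172 of 16408). Leaving out the libraries high in T and B cell markers was an alternative chosen after seeing the data, like the next. The counts were 0 at 12 h (3396 of 17040 genes) and 2 at 12 h against 8 h (4290). Without the 48 h library highest in fiber reference genes the count was 3 at 48 h against 24 h (1020 of 17136). With 1 control left out, the counts were 0 to 2 at 12 h, 4 to 5 at 16 h, 0 to 1 at 20 h, 6 to 7 at 48 h and 0 for 48 h against 24 h. All genes called were then 4858 to 5184, 5803 to 5962, 2653 to 2912, 6481 to 6642 and 963 to 997, of 17142 to 17148. The member calls at 20 h and the call of Casq1 at 12 h lay near the threshold in the TMM fit.

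Of 34 fold changes recomputed, those with a changed sign were as follows. Relative to fiber reference genes, at 16 h Jph1 was 0.52, at 24 h Atp2a2 was 0.44, Jph1 0.91 and Ryr1 0.56, and at 48 h Atp2a2 was 0.55, Cacna1s 0.049, Casq2 0.90, Jph1 0.60, Jph2 0.32 and Ryr1 0.996. The medians of all genes under that scaling were 0.63 at 16 h, 1.32 at 24 h and 1.69 at 48 h. Relative to slow fiber markers, also chosen after seeing the data, Atp2a2 was 0.64 at 24 h and 0.88 at 48 h and Casq2 was 1.445 at 48 h, beside medians of all genes of 1.53 at 24 h and 2.17 at 48 h. With column totals, Jph1 was 0.20 at 16 h and 0.18 at 24 h and Ryr1 0.041 at 48 h. Ryr1 at 8 h, 0.00 in the TMM fit, had no sign to follow. In matched columns alone the ratio difference of Ryr1 over Cacna1s at 12 h was 0.21 and did not pass. At 48 h the difference was 1.65 for Casq2 over Casq1 and 0.96 for Ryr1 over Cacna1s. Only 2 libraries were left at 48 h, too few for the exact test to pass against 6 controls. Scaling by its construction sets what a change is relative to; the cause of the other shifts was not tested.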
